A study of Mus musculus with 6 samples.

Results

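The angiopoietins and their Tie receptors were examined in muscle stem cells (MuSCs) cultured with endothelin-3 (ET-3) or neurotensin (NT). The members were chosen by gene symbol as Tek, Tie1, Angpt1 and Angpt2, 4 genes in all, of which 3 were found among the 18943 genes of the table used here. Tie1 had no row and was not analysed. The 3 genes were all above the minimum mean value of 5 over the 6 libraries that was set for testing. Tek and Angpt2 passed it only through the ligand libraries, with means of 1.5 and 4.5 in the solvent control (DMSO). The 3 genes were picked with differences between these same libraries already known. Their values are therefore given as a description, with fold changes and standard errors but without tests.

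The cells were wild-type MuSCs of C57BL/6 mice aged 8 weeks, purified by FACS and cultured for 5 days. The solvent DMSO served as control, and the labels give 100 nM for ET-3 and for NT, whereas the study's methods give other doses. Each group comprised 2 libraries, 6 in all, and nothing in the labels says whether the libraries of a group came from separate animals or cultures, so p-values measure only the spread between these samples, which may be technical. The study's design text speaks of triplicates, and the study's aim was to find the signaling pathways that act downstream of both ligands, which are peptides that bind G protein-coupled receptors.

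Tek encodes Tie2, a receptor tyrosine kinase best known from endothelial cells and also described in quiescent MuSCs. Angpt1 encodes its main agonist, angiopoietin-1, which is released by mural cells around vessels and by muscle-resident cells. Angpt2 encodes angiopoietin-2, which binds the same site on Tie2 and acts as a weaker or context-dependent agonist or as an antagonist. Tie1 is a related receptor that modulates Tie2. Angiopoietin-1 acting on Tie2 has been described to favor the return of MuSCs to quiescence.

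The values were whole numbers of scaled reads per gene, which summed to between 4214458 and 4600575 per library. The factors by which the counts had been multiplied were recovered from how often each whole number occurred and ranged from 0.781 to 1.19. Divided by them, the values corresponded to between 3629296 and 5396581 reads on genes. The markers of MuSCs and myoblasts were present in all groups, with a summed value of 9569 to 10484 for DMSO, 9229 to 9519 for ET-3 and 7963 to 8316 for NT over 10 genes. Pax7, the defining transcription factor of MuSCs, had values of 857 and 1070 for DMSO and 1599 to 1754 for the ligands. Cdh15 had 1547 and 1746 for DMSO and 436 to 496 for the ligands. Of the 9 tested markers, 2 were called lower under ET-3 and 1 under NT, and 0 were called higher. The quiescence marker Calcr had at most 3 in any library. The summed value of 6 genes of differentiated muscle was 11411 to 12684 for DMSO, 265 to 269 for ET-3 and 187 to 232 for NT. All 6 of these genes were called lower under both ligands (limma, Benjamini-Hochberg), as were 14.9% of all tested genes under ET-3 and 13.2% under NT. The ET-3 pair and the NT pair differed by less than sampling noise (chi-square averaged over genes 0.868 and 0.953, against 1.49 in the DMSO pair). Each library was kept as 1 sample, with the average of each treated pair as an alternative.

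The receptor gene Tek was near 0 with DMSO and at a moderate level with either ligand. Tek (ENSMUSG00000006386) lies on the plus strand of chromosome 4 of GRCm38, at 94739289 to 94874976, with 23 separate exon blocks and 4712 exonic bases in GENCODE. Its values were 2 and 1 for DMSO, 68 and 59 for ET-3 and 42 and 70 for NT. Every ligand library lay above both DMSO libraries, and the ET-3 and NT libraries overlapped. Among all tested genes, 38.9% had ligand libraries entirely above the DMSO libraries under ET-3, and 38.9% under NT.

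The log2 fold change of Tek, computed on value + 1, was 4.72 under ET-3 and 4.50 under NT, with a standard error of 0.34 for both. Among the 13921 tested genes this was the change of rank 11 in the upward direction under ET-3 and rank 14 under NT. Because the DMSO libraries together held 3 reads of Tek, the fold depends on how low values are treated. From the recovered reads, 111 with ET-3 and 139 with NT, the ratio to DMSO was 39.9 for ET-3 (exact 95% counting interval 13.3 to 196.2) and 35.7 for NT (11.98 to 175.4). With a pseudocount of 5 the log2 fold changes were 3.399 and 3.196. These intervals cover counting error only.

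Per kb of exon, the level of Tek was 0.318 ± 0.150 (SD, n = 2) in the DMSO group, 13.5 ± 1.35 in the ET-3 group and 11.9 ± 4.20 in the NT group. This placed Tek between percentiles 7.65 and 9.53 of all genes with DMSO, and between 42.0 and 48.1 with the ligands. The direct difference between NT and ET-3 was -0.22 on the log2 scale (standard error 0.34), smaller than its error. It was 0.14 without the first NT library and -0.58 without the second, so its direction depended on 1 library.

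**Figure D1:**
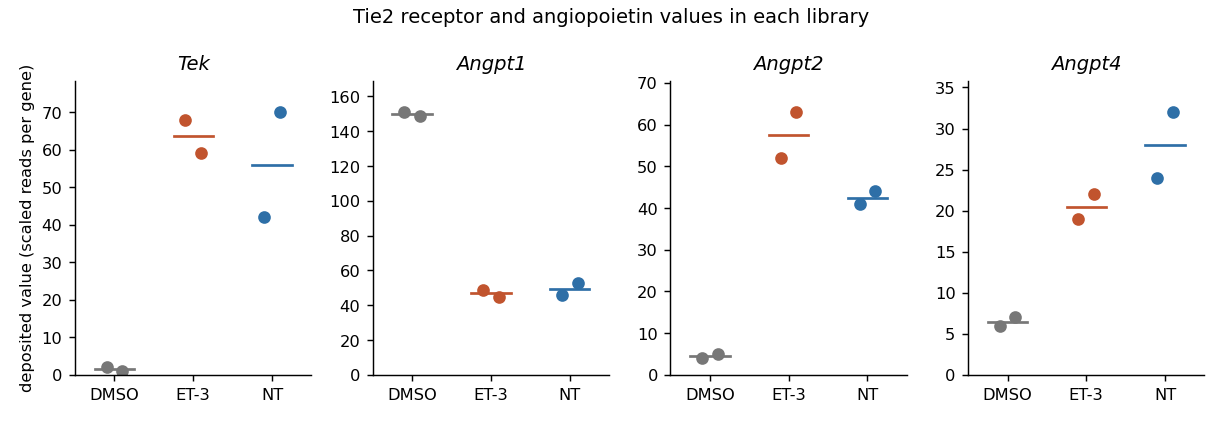
Deposited values (scaled reads per gene, y axis) of Tek, Angpt1, Angpt2 and the related ligand gene Angpt4 in each of the 6 libraries by group (x axis), with points for libraries and horizontal bars for group means. Tek lies at 1 and 2 for DMSO and between 42 and 70 for the ligands, and Angpt1 at 149 and 151 against 45 to 53.

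The 250 bases before the start of Tek are shown with those of Angpt4, since both genes were higher in every ligand library. RefSeq entries on GRCm38.p6 were matched for Tek, Tie1 and Angpt4. Angpt2 was also higher in every ligand library, but no entry was matched for it, so its window is not shown. Capitals mark E-boxes (CANNTG, which reads the same on both strands), the sites recognized by basic helix-loop-helix factors such as the myogenic regulators.
Tek, chr4:94739039-94739288, plus strand: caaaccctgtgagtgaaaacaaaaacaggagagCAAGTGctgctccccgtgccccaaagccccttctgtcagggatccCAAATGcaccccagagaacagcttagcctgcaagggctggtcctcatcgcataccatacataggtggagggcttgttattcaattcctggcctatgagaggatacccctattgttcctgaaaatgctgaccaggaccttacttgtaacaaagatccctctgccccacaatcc
Angpt4, chr2:151910957-151911206, plus strand: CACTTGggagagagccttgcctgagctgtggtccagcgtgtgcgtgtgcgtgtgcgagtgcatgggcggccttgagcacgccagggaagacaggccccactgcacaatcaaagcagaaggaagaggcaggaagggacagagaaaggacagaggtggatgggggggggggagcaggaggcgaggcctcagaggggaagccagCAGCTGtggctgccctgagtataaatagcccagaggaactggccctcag
The E-boxes began 217 and 172 bases before the start of Tek, and 250 and 49 bases before that of Angpt4. An E-box was found in 66.2% of the 32851 windows of this length, so these matches do not set the genes apart. Motifs of 5 other factor families were searched on both strands, and none of their letters were found in either window. The ETS core CGGAAG occurred in 13.6% of all windows and the FOXO site TGTTTAC in 3.17%. The AP-1 site TGANTCA occurred in 6.75%, the RBPJ core TGGGAA in 21.6% and the GATA site AGATAA in 9.99%.

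Since Tek is also an endothelial gene, its values were set beside endothelial markers. Of 14 such markers other than Tek and Tie1, 8 had a row and 4 passed the filter on low values. Their summed value was 76 to 78 for DMSO, 61 to 78 for ET-3 and 72 to 77 for NT. Vwf, the most abundant of them, had values of 38 and 52 under DMSO and 13 to 26 under the ligands. Without it the sum over the other 7 was 38 and 26 for DMSO, 47 and 52 for ET-3 and 59 and 56 for NT, higher in every ligand library. Of the defining endothelial genes, Cdh5, the cadherin of endothelial junctions, had values of 0 and 2 for DMSO, 2 and 5 for ET-3 and 2 and 5 for NT.

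Pecam1, an endothelial adhesion molecule, had values of 6 and 3, 10 and 7, and 15 and 9 in the same order of groups. Kdr, the main VEGF receptor, had values of 16 and 6, 24 and 25, and 26 and 23. Emcn had no row. Flt1 and Erg were at 0 in both ET-3 libraries, and Erg in both NT libraries. Over all tested genes, 6.62% were called higher and 14.9% lower under ET-3, and 7.3% and 13.2% under NT. Of the 4 tested endothelial markers, Kdr was called higher and Vwf lower under both ligands, and Pecam1 higher under NT. With the libraries of each treated group averaged all of these calls were lost (limma, Benjamini-Hochberg adjusted p = 0.317 and 0.318 for Kdr, 0.103 and 0.0855 for Vwf, 0.178 for Pecam1), and the call of Kdr was lost in 9 of 15 alternatives in all. The part of endothelial cells in the Tek values was not tested. In bulk RNA, fewer cells of a type and less RNA per cell cannot be told apart.

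Other cell types were covered by short marker lists. The sum over fibroadipogenic markers was 154 to 164 for DMSO, 65 to 79 for ET-3 and 88 to 96 for NT. Its members did not move together. Col15a1 had 80 and 82 under DMSO and at most 1 under the ligands, and Cd248 and Dcn were also lower. Ly6a was higher, with 27 and 18 against 37 to 52, and Pdgfra had 20 and 30 against 26 to 44. Of 4 lymphatic endothelial markers, 3 had a row, and Lyve1 had none. These 3 summed to 898 to 904, 949 to 1002 and 803 to 832, nearly all of it from Prox1 and Pdpn. Prox1, called lower under both ligands, had values of 300 and 246 under DMSO and 35 to 63 under the ligands. Pdpn had 597 and 658 against 736 to 942, and Flt4 had at most 5. Of 7 markers of macrophages and blood, 3 had a row, and these summed to 25 to 32, 55 to 77 and 51 to 60. They did not move together. Cd14 had 4 and 5 under DMSO and 24 to 34 under the ligands, and Cd68 had 15 and 14 against 16 to 41. Csf1r was lower, with 6 and 13 against 4 to 5. Ptprc, Adgre1, C1qa and Lyz2 had no row. Schwann cell markers summed to 137 to 153, 617 to 627 and 619 to 682, of which Ngfr, also a gene of myoblasts, made the largest part. The part of such cells in the Tek values was not tested.

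**Figure D2:**
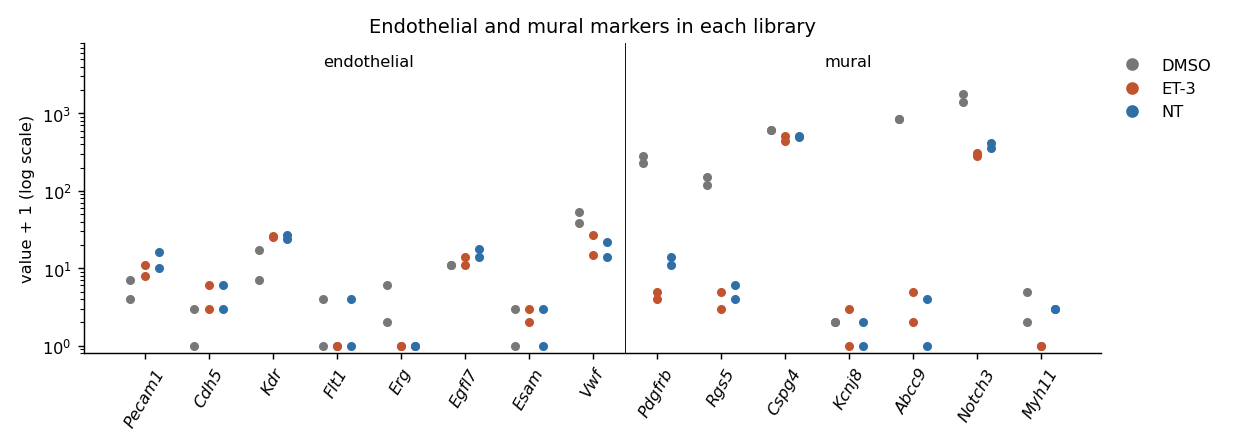
Values + 1 (log scale, y axis) of the endothelial and mural marker genes that had a row (x axis), with 1 point for each of the 6 libraries, colored by group. The endothelial markers stay low in all groups, whereas the mural markers Pdgfrb, Rgs5, Abcc9 and Notch3 are lower with both ligands.

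Among the ligands, the agonist gene Angpt1 was about 3-fold lower where the receptor gene was higher. Angpt1 (ENSMUSG00000022309) lies on the minus strand of chromosome 15 at 42424723 to 42676977, with 10 separate exon blocks and 5205 exonic bases. Its values were 151 and 149 for DMSO, 49 and 45 for ET-3 and 46 and 53 for NT. The DMSO libraries agreed closely and lay above every ligand library, as they did for 40.7% of tested genes under ET-3 and 41.7% under NT.

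The log2 fold change of Angpt1 reached -1.65 (ET-3) and -1.58 (NT), each with a standard error of 0.15, which corresponds to values 3.15-fold and 2.997-fold lower. The ratio of recovered reads gave 3.22-fold (exact 95% counting interval 2.51 to 4.16) and 3.02-fold (2.43 to 3.76). In downward rank the gene stood at 1294 and 1209 of the 13921 tested genes, so many genes were lower by more. NT and ET-3 differed by 0.07 on the log2 scale (standard error 0.15), and their libraries overlapped. An antisense gene, Gm17473, shares 737 exonic bases with Angpt1 and was not analysed here.

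Mural cells are a known source of Angpt1, and the summed value of their markers was lower in the same libraries. Of 8 mural markers, 7 had a row and 5 passed the filter, of which 4 were called lower under each ligand. Over all tested genes, 14.9% were called lower under ET-3 and 13.2% under NT. Cspg4, the other tested marker, had values of 610 and 612 for DMSO and 433 to 509 for the ligands, and was not called. The summed value of the 7 mural markers was 3207 to 3650 for DMSO, 752 to 799 for ET-3 and 878 to 928 for NT. Abcc9, a potassium channel subunit also used by muscle, fell from 851 and 835 to between 0 and 4. Pdgfrb, the receptor that defines pericytes, fell from 227 and 278 to between 3 and 13. Kcnj8 and Myh11, markers of pericytes and smooth muscle, were at most 4 in every library. The part of mural cells, and of the differentiated muscle cells named above, in the lower Angpt1 level was not tested.

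Angpt2, the gene of the context-dependent ligand, was higher in the same libraries as Tek. It lies on the minus strand of chromosome 8 (ENSMUSG00000031465, 18690263 to 18741562), with 10 separate exon blocks and 3690 exonic bases. Its values were 4 and 5 for DMSO, 52 and 63 for ET-3 and 41 and 44 for NT. The groups did not overlap, and the ET-3 libraries were highest. Ligand libraries entirely above the DMSO libraries were found in 38.9% of tested genes under ET-3 and 38.9% under NT.

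The log2 fold change of Angpt2 reached 3.41 (ET-3) and 2.99 (NT), each with a standard error of 0.26. These were the changes of rank 58 and 98 in the upward direction. With 8 reads in the DMSO libraries together, the ratio of recovered reads was 13.7 for ET-3 (exact 95% counting interval 6.71 to 32.7) and 10.03 for NT (4.90 to 23.8). With a pseudocount of 5 the log2 fold changes were 2.71 and 2.32. NT was lower than ET-3 by a log2 difference of -0.42 (standard error 0.26). In 21.9% of tested genes the NT libraries lay entirely below the ET-3 libraries.

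Angpt2 lies inside Mcph1, a gene of chromosome condensation and DNA damage response that runs on the opposite strand at 18595131 to 18803189. Their exons share 0 bases. Mcph1 had values of 202 and 205 for DMSO, 419 and 426 for ET-3 and 433 and 436 for NT. The sources do not state whether strand was used in counting, and without it Mcph1 transcripts that retain introns cannot be told apart from Angpt2. The value of Angpt2 was 1.98% and 2.44% of that of Mcph1 for DMSO, 12.4% and 14.8% for ET-3 and 9.47% and 10.1% for NT. Relative to Mcph1, Angpt2 was higher in the ligand libraries, though the DMSO percentages rest on 8 reads of Angpt2. The part of Mcph1 transcripts in the Angpt2 values was not tested.

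Angpt4, the remaining angiopoietin gene of the mouse, was examined as part of a list of 37 other components of Tie signaling. Its values were 6 and 7 for DMSO, 19 and 22 for ET-3 and 24 and 32 for NT. It rose by a log2 fold change of 1.52 under ET-3 and 1.94 under NT (limma, standard error 0.30), with Benjamini-Hochberg adjusted p = 0.00133 and 0.000282. With the libraries of each treated group averaged, the adjusted p was 0.0447 and 0.0392 (limma, Benjamini-Hochberg).

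Levels of the 3 ligand genes were compared per kb of exon. With DMSO, Angpt1 was highest at 28.8 ± 0.272 (SD, n = 2), followed by Angpt4 at 2.78 ± 0.303 and Angpt2 at 1.22 ± 0.192. With ET-3, Angpt2 was highest at 15.6 ± 2.11, and Angpt1 at 9.03 ± 0.543 and Angpt4 at 8.78 ± 0.908 were within their spread of each other. With NT, Angpt4 at 11.99 ± 2.42, Angpt2 at 11.5 ± 0.575 and Angpt1 at 9.51 ± 0.951 followed in that order. The SD range of Angpt4 overlapped those of Angpt2 and of Angpt1.

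The ratio of Angpt1 to Angpt2 per kb was 26.8 and 21.1 in the DMSO libraries, 0.668 and 0.506 for ET-3 and 0.795 and 0.854 for NT. Angpt1 was thus the higher of both genes in the DMSO libraries and the lower in all 4 ligand libraries. The sum of the 3 ligand genes per kb was 32.7 and 33.0 for DMSO, 31.6 and 35.1 for ET-3 and 30.2 and 35.8 for NT, with overlap between all groups. Within this sum, Angpt1 held 88.8% and 86.8% for DMSO, 29.8% and 24.6% for ET-3 and 29.2% and 28.4% for NT. The ligand mixture differed between the groups while its total did not separate them.

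**Figure D3:**
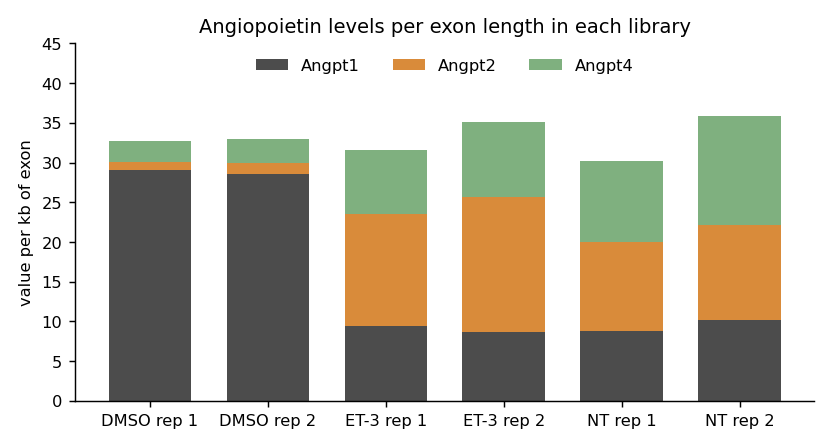
Levels per kb of exon (y axis) of Angpt1, Angpt2 and Angpt4, stacked for each of the 6 libraries (x axis). The height of the stack lies between 30.2 and 35.8 in every library, and the Angpt1 part is 86.8% and 88.8% for DMSO and 24.6% to 29.8% for the ligands.

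The balance of receptor and agonist also shifted. The ratio of Tek to Angpt1 per kb was 0.0146 and 0.00741 for DMSO, 1.53 and 1.45 for ET-3 and 1.01 and 1.46 for NT. The 2 comparisons share their DMSO libraries, so the values under ET-3 and NT are not independent of each other.

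**Figure D4:**
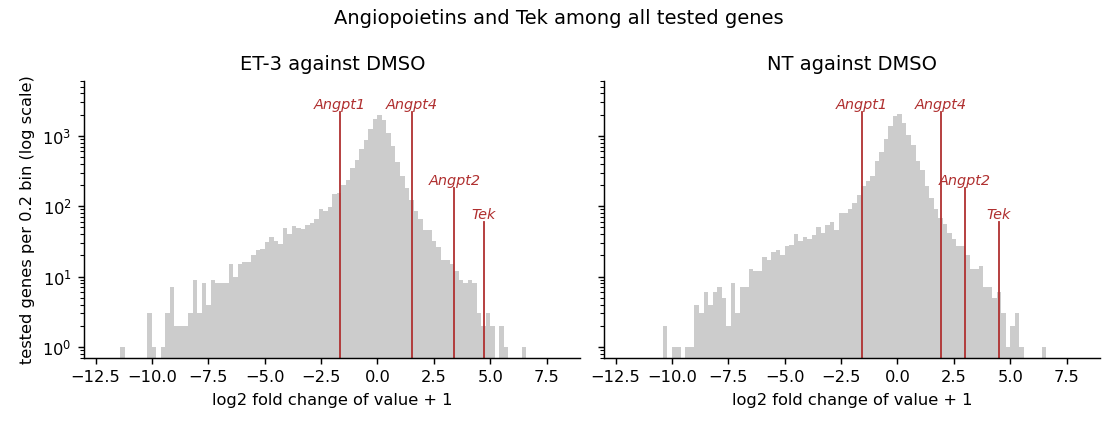
Distribution of the log2 fold change of value + 1 (x axis) over the 13921 tested genes, as genes per bin (y axis, log scale), under ET-3 and NT. Red lines mark Tek at 4.72 and 4.50, Angpt2 at 3.41 and 2.99, Angpt4 at 1.52 and 1.94, and Angpt1 at -1.65 and -1.58.

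The other components of Tie signaling, from adaptors to the PI3K and ERK branches, were examined as a list. Of the 37 listed genes, 34 had a row and 32 were tested. Under ET-3, 1 gene passed as higher and 4 passed as lower (15.6%), where a call required 2-fold and an adjusted p no larger than 0.05. Under NT the counts were also 1 and 4 (15.6%). Over all tested genes the same rule called 21.5% under ET-3 (6.62% higher and 14.9% lower) and 20.5% under NT (7.3% higher and 13.2% lower). With the libraries of each treated group averaged, these shares were 15.3% (3.33% higher and 11.9% lower) and 13.8% (3.4% higher and 10.4% lower), and 3 genes of the list were called under each ligand. The list's median log2 fold change was -0.05 and -0.10, against -0.01 and -0.01 over all tested genes.

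The called genes were Angpt4, Svep1, Grb14, Akt2 and Itgb3 under each ligand. Itgb3, an integrin subunit that can bind angiopoietins, had values of 76 and 82 for DMSO, 26 and 25 for ET-3 and 25 and 23 for NT. Its log2 fold change was -1.59 and -1.68 (limma, standard error 0.20, Benjamini-Hochberg adjusted p = 6.86e-05 and 5.03e-05). Every ligand library lay below both DMSO libraries, as in 40.7% of tested genes under ET-3 and 41.7% under NT.

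Svep1, a matrix protein described as a ligand of Tie1, fell from 84 and 57 under DMSO to 26 and 34 (ET-3) and 26 and 30 (NT). Its log2 fold change was -1.19 and -1.28 (limma, Benjamini-Hochberg adjusted p = 0.00194 and 0.00131). Grb14, an adaptor that binds Tie2 and the insulin receptor, fell from 28 and 40 under DMSO to 6 and 12 (ET-3) and 6 and 8 (NT). Its log2 fold change was -1.85 and -2.12 (limma, Benjamini-Hochberg adjusted p = 0.00188 and 0.000848). With the libraries of each treated group averaged, neither gene passed the threshold (limma with Benjamini-Hochberg adjusted p = 0.120 and 0.111 for Svep1, 0.0671 and 0.0592 for Grb14). Without the first DMSO library Svep1 changed by -0.92 under ET-3, short of 2-fold.

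Akt2, a kinase downstream of PI3K that also serves insulin signaling, had values of 1063 and 1092 for DMSO, 541 and 526 for ET-3 and 545 and 530 for NT. Its log2 fold change of -1.01 and -1.002 lay just past the 2-fold threshold (limma, Benjamini-Hochberg adjusted p = 5.54e-08 and 6.66e-08). The change was -0.92 and -0.89 with library totals, short of 2-fold, and it was also short of 2-fold under ET-3 without the second DMSO or the second ET-3 library and under NT without the second DMSO or the second NT library, as well as under NT with upper quartiles or a pseudocount of 5. Akt1 was not called.

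Of the direct Tie2 partners listed for naming, Tnip2, an inhibitor of NF-kappaB signaling, had values between 137 and 179 in all libraries and did not pass the threshold. Dok2, an adaptor recruited to Tie2, had values of 2 and 2, 6 and 8, and 6 and 4, and was not tested because its mean was under 5, although it was called higher under ET-3 when genes of all levels were tested. The Tie2 phosphatase gene Ptprb and the partners Grb7 and Bmx had no row and were not analysed.

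At an adjusted p of at most 0.05 without the fold threshold (limma, Benjamini-Hochberg), 9 genes of the list were higher and 10 lower under ET-3, and 7 higher and 14 lower under NT. Over all tested genes, 30.6% were higher and 33.2% lower under ET-3 by this rule, and 29.7% and 32.5% under NT. With 32 genes tested, the list lay near the general rate under ET-3. Under NT its share was larger for lower genes and smaller for higher genes, a difference that was not tested. Of 9 tested genes of the PI3K and AKT branch, 2 were higher and 2 lower under ET-3, and 1 higher and 2 lower under NT. Of 9 tested genes of the Ras and ERK branch, 3 were higher and 2 lower under ET-3, and 2 higher and 3 lower under NT. The 4 integrin genes gave 3 lower under ET-3 and 4 lower under NT.

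**Figure D5:**
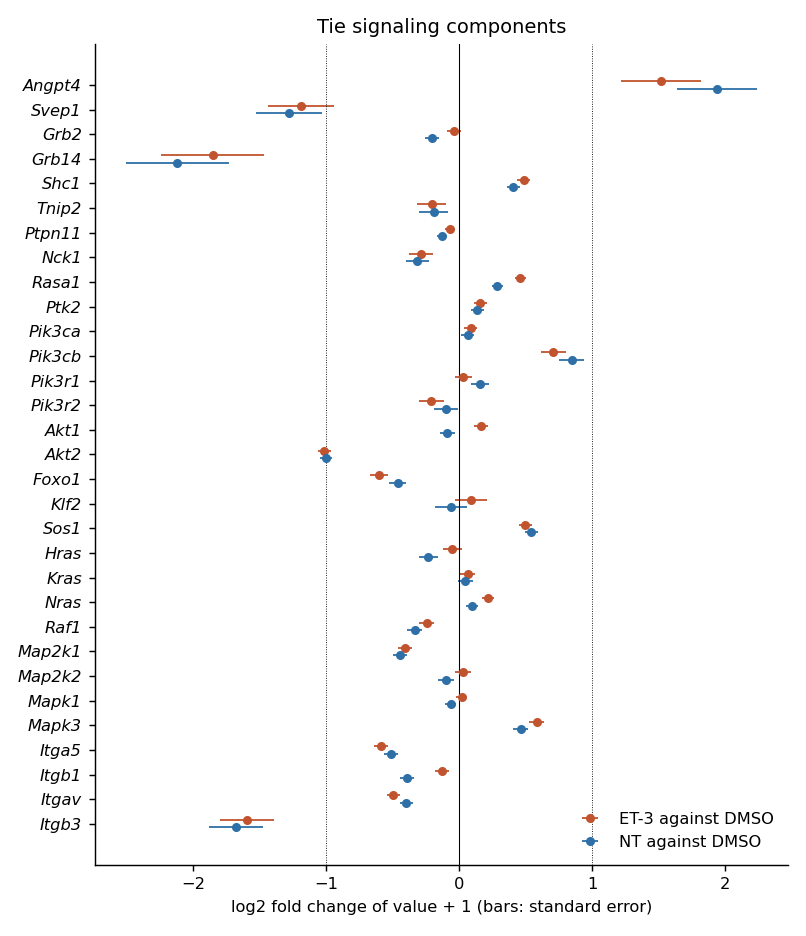
Log2 fold change of value + 1 (x axis, bars for the standard error) of tested components of Tie signaling (y axis, ordered by role) under ET-3 and NT, with dotted lines at 2-fold. Angpt4 lies to the right of the upper line, Svep1, Grb14 and Itgb3 to the left of the lower one, and Akt2 close to it.

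Related vascular factors were examined for comparison. Of 11 listed symbols of the VEGF family, 10 had a row and 8 were tested, of which 2 were called under each ligand, both higher, with a median change over the list of 0.38 (ET-3) and 0.60 (NT) on the log2 scale. Nrp2, a co-receptor of VEGF and semaphorins, rose from 129 and 112 under DMSO to 778 and 783 (ET-3) and 721 and 801 (NT). Its log2 fold change was 2.69 and 2.65 (limma, standard error 0.08, Benjamini-Hochberg adjusted p = 2.97e-09 and 4.06e-09). Kdr was also called, with 1.22 and 1.22 (limma, Benjamini-Hochberg adjusted p = 0.0201 and 0.0209). The losses of the Kdr call given above included the omission of any library but the first of DMSO, with a change of 0.58 without the second DMSO library. Of 7 angiopoietin-like genes, whose products do not bind Tie2, 3 were tested. Under each ligand 1 of them was called (33.3%), beside 21.5% (ET-3) and 20.5% (NT) over all tested genes. This was Angptl4, an inhibitor of lipoprotein lipase, which was higher. Its values were 26 and 31 for DMSO, 150 and 141 for ET-3 and 129 and 130 for NT.

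The genes whose profiles over the 6 libraries were nearest to those of the members were found by the root mean square difference of centred log2 values. For Tek they were Gfra2 (0.222), Gsta2 (0.249) and Ano1 (0.255). Gfra2, a co-receptor of neurturin, had values of 6 and 3 for DMSO, 100 and 99 for ET-3 and 90 and 130 for NT. Gsta2 belongs to a family of near-identical glutathione transferase genes, so its reads are uncertain.

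For Angpt2 the nearest genes were Cd24a (0.127), Cbr3 (0.177) and Fut4 (0.185). Cd24a, a surface glycoprotein, had values of 31 and 32 for DMSO, 290 and 303 for ET-3 and 237 and 258 for NT, and so shared the lower level under NT. For Angpt1 they included Ksr1 (0.0531) and Fbxo17 (0.0641). Ksr1, a scaffold of the ERK cascade, had values of 477 and 467, 142 and 146, and 140 and 162. These distances are descriptions over 6 libraries that share the same treatments.

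Over all genes, NT set directly against ET-3 called 11 of 13921 genes (0.079%) past both thresholds, 7 higher (0.0503%) and 4 lower (0.0287%), and 375 (2.69%) at an adjusted p of at most 0.05 alone in limma with Benjamini-Hochberg adjustment. Of the 32 tested components of Tie signaling, 2 passed the adjusted p alone, both lower with NT, and neither changed by 2-fold.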

How the data were processed

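RNA-seq values of 6 libraries were used. According to the study's methods, single-end reads were trimmed, aligned to mm10 (GRCm38) with STAR and counted on exons per gene with featureCounts, with multimapping and multi-gene reads excluded. The submitters' processing notes name Trimmomatic 0.38, STAR 2.7.7a, featureCounts 1.6.5 and DESeq2 1.30.0. The methods name a stranded kit and the labels one that does not mark strand. The deposited signal is a read count multiplied by 1 factor per library and rounded, and this scaling is not described. Each factor was estimated from the frequency of the whole numbers up to 500. In the second DMSO and both ET-3 libraries, 64, 80 and 42 of these numbers cannot arise from a read count and held 0, 7 and 5 genes.

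Values were used as deposited, as log2(value + 1), which understates the change of low genes. A mean value of at least 5 was required, which removed 5022 of 18943 genes. All 6 libraries entered 1 fit in limma 3.58.1 (R 4.3.3) with a mean-variance trend, and Benjamini-Hochberg adjustment covered 13921 genes. Calls were made at 2-fold and an adjusted p no larger than 0.05. Count models were not run on scaled values. Coordinates, exonic lengths (18920 genes matched) and overlaps came from GENCODE on GRCm38. Counting intervals are exact Clopper-Pearson intervals at 95%. The fit was tested on simulated data. Members and gene lists were chosen with earlier results of these data known. Named from the lists were 8 direct partners fixed by name (Angpt4, Ptprb, Svep1, Grb7, Grb14, Dok2, Tnip2 and Bmx), genes called under both ligands, and the 3 genes with the nearest profile to each member. Some genes that these rules name are not reported here. The markers of other cell types were lists of 4 to 14 genes. Other steps were run in Python 3.11.15 (pandas 2.3.3, numpy 2.4.6, scipy 1.17.1). Alternatives covered scaling, pseudocount, filter, replicate block, fits of 2 groups alone, voom on the recovered reads, averaged treated pairs and each library left out.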

Additional observations from a re-analysis of the deposited data

Results flagged for a closer look

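Of the listed genes, 3 differed between the ligands in the direct limma contrast with Benjamini-Hochberg adjustment, all lower with NT. Over all tested genes, 2.69% passed this contrast, and in 21.9% the NT libraries lay entirely below the ET-3 libraries. Akt1 differed by -0.25 on the log2 scale (standard error 0.06, adjusted p = 0.0475 in limma), Itgb1 by -0.27 (standard error 0.05, adjusted p = 0.0420 in limma) and Vegfa by -0.21 (standard error 0.05, adjusted p = 0.0452 in limma), in each case with both NT libraries below both ET-3 libraries. Each passed in 4 of 15 alternatives, with adjusted p from 0.00444, 0.00249 and 0.00946 up to 0.712 in limma. Leaving out any 1 library ended all 3 calls.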

How the results depend on the processing

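Over 15 alternatives, Tek and Angpt2 stayed higher and Angpt1 lower than DMSO under each ligand. The log2 fold change of Tek ranged from 3.399 to 5.04 under ET-3 and from 3.196 to 4.86 under NT, and that of Angpt2 from 2.71 to 3.62 and from 2.32 to 3.17. The lowest values came with pseudocount 5, and the highest of Angpt2, 3.62 and 3.17, with voom on the recovered reads. Angpt1 under NT was -1.47 with library totals and -1.68 to -1.48 with a library left out, and its difference between NT and ET-3 was -0.029 to 0.17 (the lowest without the second NT library). With treated pairs averaged, the Tie signaling list had 3 called genes under ET-3 and 3 under NT, Akt2, Angpt4 and Itgb3, while the count over all tested genes was 2123 and 1924, of which 464 and 473 were higher. Library totals moved the median of all tested genes to 0.08 under ET-3 and 0.10 under NT.

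For NT against ET-3, 7 genes were called with pseudocount 5. The count was 0 without the filter (3110 genes at an unadjusted p under 0.05 in limma), 0 with 2 groups alone (2874), 0 with treated pairs averaged (652), and 0 with any library left out (1455 to 2902). With the replicate block it was 0 (2628), and the block moved the counts for the ligands against DMSO by less than 1.5 times. Same-numbered libraries did not deviate together, with correlations across genes of -0.01, -0.07 and -0.02 between groups, so the numbers were not taken to pair the libraries. The low reads of Tek and Angpt2 with DMSO limit the size of their folds.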
